A study of Mus musculus with 6 samples.

Results

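The protein genes of the mouse cytosolic ribosome, the particle that translates mRNA into protein, carry the prefixes *Rpl*, for the large subunit, and *Rps*, for the small subunit. They were chosen by name alone: symbols that begin with *Rpl* or *Rps* followed directly by a digit, together with *Rplp0*, *Rplp1*, *Rplp2* and *Rpsa*. Names that begin with *Rps6k* (protein kinases), names that contain "-ps" (pseudogenes) and *Rps19bp1* (a binding protein) were left out. This gave 88 of the 18152 genes in the table, of which 46 belonged to the large subunit, 31 to the small subunit, and 11 carried the name of a copy of another ribosomal protein gene. No measured value took part in the choice.

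The inner enamel epithelium (IEE), the epithelial layer whose folding shapes the molar cusps, was isolated from mandibular first molars at E18.5 by laser capture microdissection and sequenced in 3 *Kdf1* fl/fl (control) and 3 *K14-Cre;Kdf1* fl/fl (cKO) libraries. All animals therefore carried the floxed *Kdf1* allele on both chromosomes, although the labels describe the controls as wild type, and the cKO group alone carried Cre recombinase under the keratin 14 promoter, which acts in epithelial cells in general and not in the IEE alone. No treatment was given. The question put to the ribosomal protein genes was whether their mRNA levels differed between IEE with and without *Kdf1*.

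Each ribosomal protein enters the particle in a single copy, apart from the stalk proteins, and the genes are transcribed together at high level in growing cells. Their mRNAs belong to the TOP class, which begins at the cap with a C followed by an unbroken run of pyrimidines, and the kinase mTOR, acting through Larp1, sets how well such mRNAs are translated and how stable they are. The translation of the mRNAs was not measured here.

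Some of the annotated start sites carry this mark. Windows of 30 bases, from 10 bases upstream to 20 bases from the annotated start, are given for 6 core members whose start opens such a run, because the run defines the TOP class, and for *Rpl7l1*, the member with the lowest p below. Sequences and starts come from RefSeq (GRCm38.p6), capitals mark the unbroken run of C and T from the start base, and each is written 5′ to 3′ on the strand of the gene.
*Rpl15*, large subunit, chr14:18270967-18270996, minus strand: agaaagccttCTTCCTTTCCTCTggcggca
*Rps10*, small subunit, chr17:27635225-27635254, minus strand: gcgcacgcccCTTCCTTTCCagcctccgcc
*Rps6*, small subunit, chr4:86857348-86857377, minus strand: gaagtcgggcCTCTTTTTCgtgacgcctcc
*Rps15a*, small subunit, chr7:118116128-118116157, minus strand: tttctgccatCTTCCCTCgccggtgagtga
*Rpl28*, large subunit, chr7:4792955-4792984, plus strand: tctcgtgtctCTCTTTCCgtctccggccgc
*Rplp2*, stalk protein, chr7:141447641-141447670, plus strand: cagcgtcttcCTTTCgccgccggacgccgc
*Rpl7l1*, named copy of *Rpl7*, chr17:46782637-46782666, minus strand: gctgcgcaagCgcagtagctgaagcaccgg

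The run was 13 bases long in *Rpl15*, 10 in *Rps10*, 9 in *Rps6*, 8 in *Rps15a* and *Rpl28*, and 5 in *Rplp2*, whereas *Rpl7l1* began with a C that was followed by a G. Of the 88 members, 68 had an entry in the promoter table. Among the 67 annotated starts of 57 genes outside the named copies, 13 (19.4%) began with C and at least 4 further C or T, against 2.51% of 32851 annotated starts of all genes. In the window from 250 bases upstream to 50 bases downstream, searched on both strands, the letters CCGGAAG, a core that ETS factors and GABP recognise, occurred at 37.3% of the members' starts and 8.86% of all starts. The letters AAGATGGC, the core of the YY1 motif, stood at 10.4% against 2.75%, and TATAAA at 8.96% against 13.6%. These are matches of letters in a fixed window around an annotated start, which can lie some bases away from the start in use.

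The libraries held between 14713918 and 16675133 reads assigned to genes, so that a count of 0 allows up to 0.198 CPM (counts scaled to a common library total) in the smallest. *Kdf1* was at 52.5, 44.3 and 52.7 CPM in the controls and was represented by 1 read in all in the 3 cKO libraries. The markers of dental epithelium took 1.29 to 2.73% of counts in the controls and 0.622 to 1.08% in the cKO libraries, and all 14 were detected. Of these 14, 10 had a log2 fold change (cKO over control) below 0, and the median was -0.57. At an unadjusted p of at most 0.05 by edgeR 7 were lower and 0 higher, where 11.6% and 13.0% of all tested genes were. edgeR called 1 of them lower, and 7 with the replicate block (0.545% and 9.87% of all genes called). *Krt14* itself stood at 1567 ± 652 CPM in the controls and 555 ± 223 CPM in the cKO libraries (SD, n = 3). *Cdh1* stood at 843 ± 189 and 299 ± 45.0 CPM, while *Epcam* stood at 321 ± 87.7 and 309 ± 41.7 CPM. Transcripts of other tissues were present in every library. The 13 markers of dental papilla and odontoblasts took 0.421 to 2.29% of counts in the controls and 1.12 to 1.29% in the cKO libraries. Of the 12 tested, 8 were higher and 1 was lower in cKO at an unadjusted p of at most 0.05 (13.0% and 11.6% of all tested genes), with a median log2 fold change of 1.16. edgeR called 1 of them higher (0.545% of all genes called), and 6 higher and 1 lower with the replicate block (9.87% of all). Their part in the values of the ribosomal protein genes was not tested. Markers of endothelium took 0.0298 to 0.0401% of counts in the controls and 0.0379 to 0.11% in the cKO libraries. Those of immune cells took 0.00319 to 0.00648% and 0.00548 to 0.0205%, and those of neutrophils 0.000337 to 0.000554% and 0.00313 to 0.00782%. At the same unadjusted p, 5 of 9 endothelial, 5 of 9 immune and 5 of 6 tested neutrophil markers were higher, and 0 were lower. edgeR called 5 neutrophil markers higher and 0 of the endothelial and immune markers. In tissue samples of this kind fewer cells of a type and less RNA per cell cannot be told apart.

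Ribosomal protein mRNAs stood among the most abundant transcripts of the IEE. On the TPM scale, which corrects for transcript length, 7 of the 10 highest genes and 68 of the 100 highest were members. The genes outside the named copies ranged from 81.8 to 13664 TPM around a median of 2823 TPM (mean of 6 libraries). The highest was *Rps26*, a small subunit protein at the mRNA exit, with 15022, 12583 and 12902 TPM in the controls and 11354, 13720 and 16401 TPM in the cKO libraries. *Rpl41*, which encodes the smallest ribosomal protein, followed with 10234, 9898 and 10678 TPM against 8767, 10430 and 11004 TPM. *Rps27*, a zinc-binding protein of the small subunit, came next with 7815, 6264 and 6605 TPM against 6260, 7271 and 9618 TPM. The order of the 3 genes was the same in all 6 libraries, and for each the control and cKO values overlapped. These ranks depend on the lengths implied by counts and FPKM, which were short: 182 bases for *Rps26*, 183 for *Rpl41* and 88.5 for *Rps27*. In mean CPM, which does not use length, *Rps27* (356 in the controls, 391 in cKO) lay below *Rps15a* (409 and 479), a gene low in TPM.

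**Figure D1:**
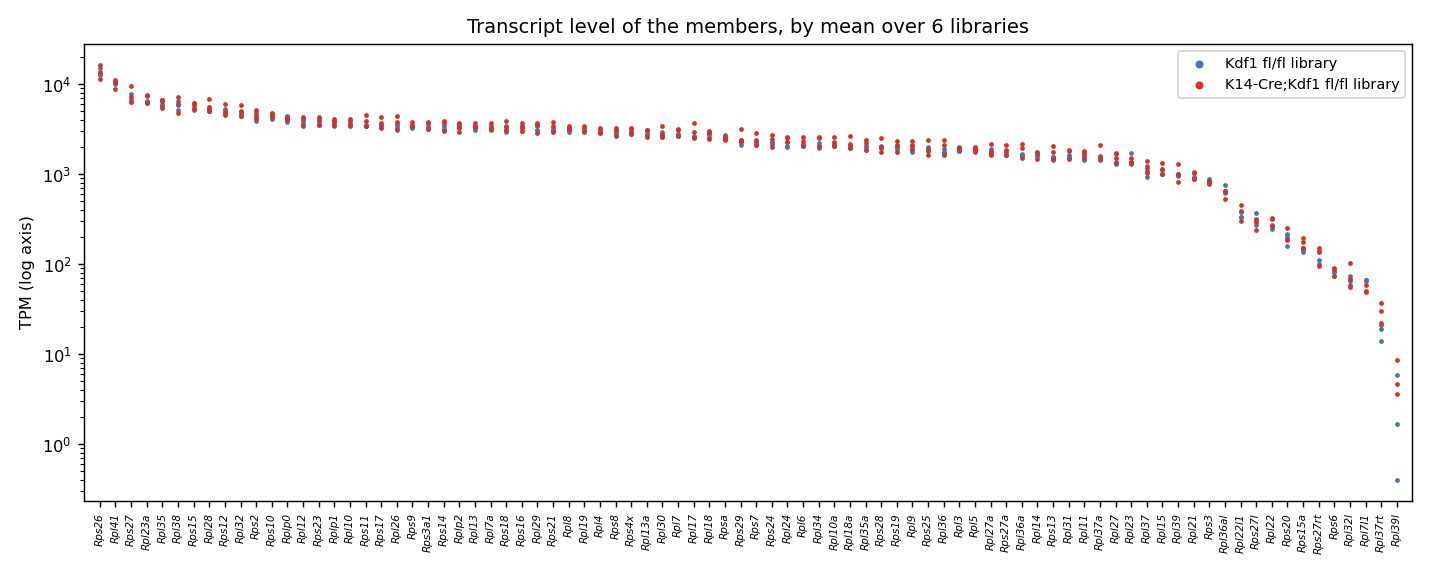
Level of the reported members in TPM (vertical axis, log scale) in every library, ordered by the mean over 6 libraries, with *Kdf1* fl/fl libraries in blue and *K14-Cre;Kdf1* fl/fl libraries in red. The 3 members that did not pass the filter on low counts are not shown, the colours lie over each other for nearly all genes, and the levels run from 13664 TPM for *Rps26* down to 4.14 TPM for *Rpl39l*.

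The lowest members outside the named copies were *Rps6*, *Rps15a* and *Rps20*, and their levels depended on how reads and lengths had been assigned. *Rps6*, the small subunit protein that S6 kinases phosphorylate downstream of mTOR, had 862, 834 and 819 counts in the controls and 686, 904 and 918 in the cKO libraries, or 81.8 TPM on average. *Rps6-ps4*, a gene named as a pseudogene of *Rps6* and therefore outside the rule, had 23172, 21370 and 23437 counts against 19601, 22938 and 24700. *Rps6* thus received between 3.38 and 3.79% of the reads of both, a share that differed between the groups by less than its spread between libraries, and how reads of such near-identical copies were divided is not given in the sources used here. *Rps15a* (159 TPM) and *Rps20* (201 TPM) were low per length only, since their lengths implied by counts and FPKM, 4868 and 3178 bases, stood far above the core genes' median of 461 bases. In CPM, which does not use length, *Rps20*, a protein of the head of the small subunit, had 381, 277 and 428 in the controls and 310, 342 and 475 in the cKO libraries. These overlapping values differed by 0.053 on the log2 scale (SE 0.22, adjusted p = 0.907 by edgeR).

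No ribosomal protein gene passed the test between the genotypes. After the quasi-likelihood test of edgeR, with p-values adjusted by the Benjamini-Hochberg method over 14131 genes, 0 of the 85 tested members reached an adjusted p of at most 0.05, where 0.545% of all tested genes did. At an unadjusted p of at most 0.05 the count was 1, *Rpl7l1*, against 24.5% of all tested genes. With the adjusted p raised to 0.1 it was again 1 (8.36% of all). With the replicate block, which pairs libraries of the same replicate number, 0 members were called (9.87% of all) and 3 (*Rpl7l1*, *Rpl37rt* and *Rpl39l*) had an unadjusted p of at most 0.05 (29.3% of all). *Rpl7l1* was also the only member whose control and cKO libraries did not overlap in CPM, where 30.7% of all tested genes did not overlap, 14.5% being higher and 16.2% lower in cKO. At the study's criterion, a change of at least 1 on the log2 scale together with an adjusted p of at most 0.05, the count was 0 (0.432% of all, edgeR). That share is 61 genes in the edgeR fit. The paper, which names no test, reports many more differentially expressed genes. DESeq2 called *Rpl7l1* and no other member (12.6% of all genes).

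The other 3 members did not pass the filter on low counts. *Rpl10l*, known for its expression in testis, had 1 count in all over the controls and 0 in the cKO libraries. *Rps23rg1*, a retrogene of *Rps23*, had 0 in the controls and 2 in all over the cKO libraries. *Rpl3l*, known from heart and skeletal muscle, had 4, 2 and 0 counts in the controls and 4, 2 and 0 in the cKO libraries. All of these lie at the level of a few reads, and no fold is given.

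For the 77 genes of the core ribosome, that is without the named copies, the estimates were close to 0 and the limits were narrow. The log2 fold changes (cKO over control) lay between -0.13 for *Rpsa* and 0.23 for *Rps15a*, or a change of -8.68 to 17.2% relative to the control mean in CPM, with standard errors of 0.136 to 0.241. The 95% intervals of all 77 lay inside a 2-fold change in either direction and those of 67 inside a 1.5-fold change, and the outermost limits were -0.56 and 0.70 on the log2 scale. The smallest adjusted p among these genes was 0.416 with edgeR and 0.383 with DESeq2.

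**Figure D2:**
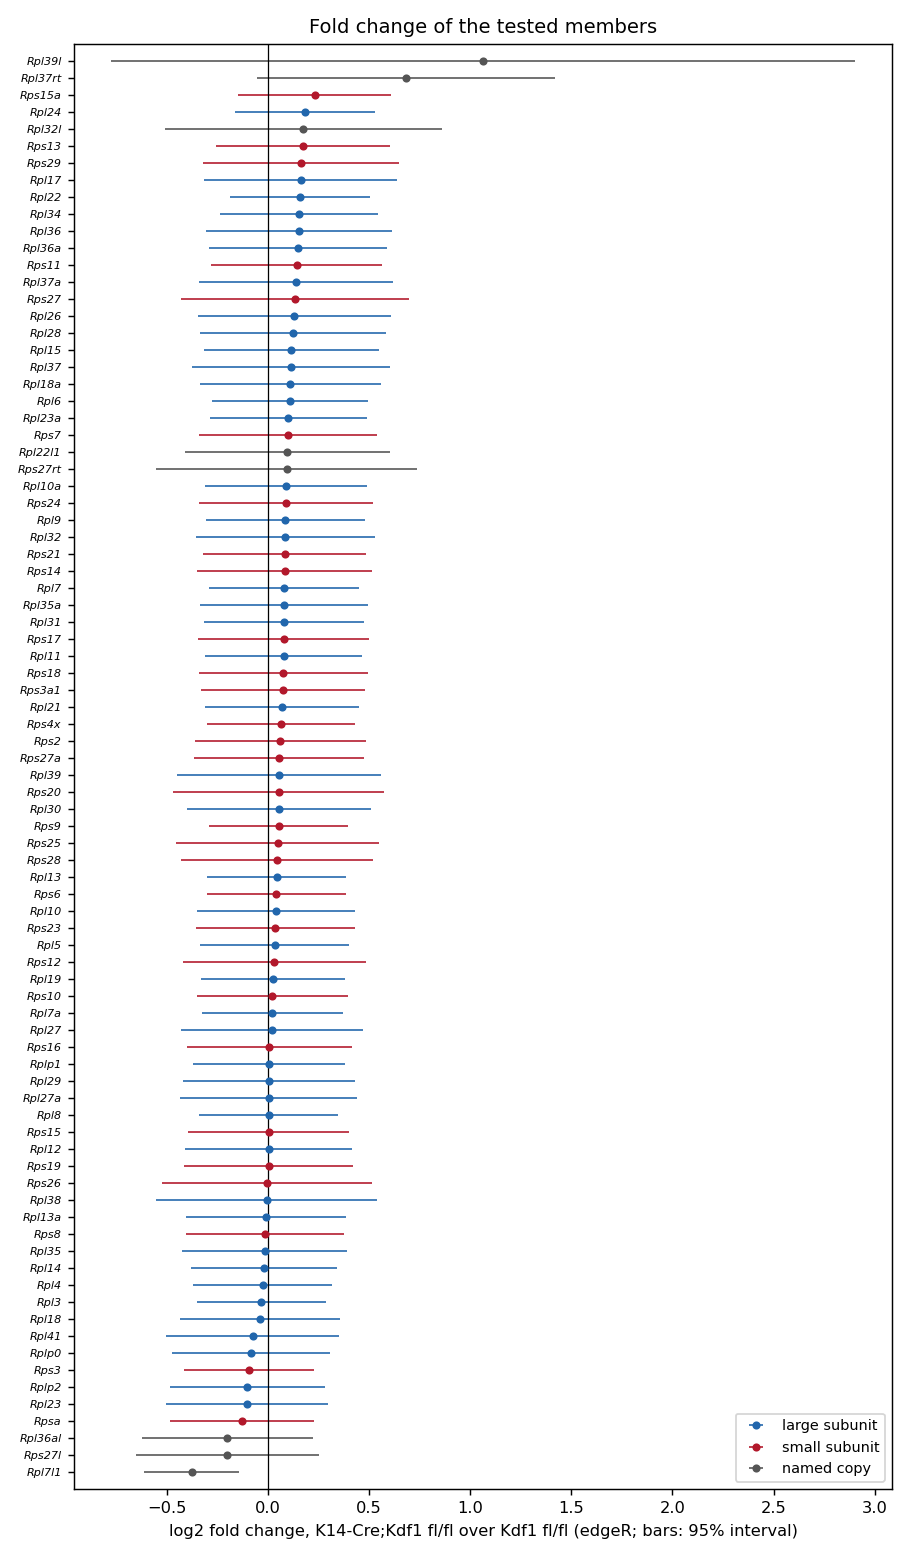
Log2 fold change of the reported members among those tested, K14-Cre;Kdf1 fl/fl over Kdf1 fl/fl, from edgeR's quasi-likelihood fit (horizontal axis), with 95% intervals as bars and genes ordered by their estimate. Large subunit genes are blue, small subunit genes red and named copies grey, and the interval of *Rpl7l1* at the bottom (-0.61 to -0.14) alone leaves out 0.

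The estimates leaned to the higher side. Of the 85 tested members 67 had a log2 fold change above 0, where 49.5% of all tested genes did, and their median was 0.055 against -0.0043 over all genes. The lean rested on single libraries. Without cKO replicate 3 the median was -0.062 and 13 of 85 were above 0, without control replicate 2 it was -0.015 with 34 of 85, and without cKO replicate 1 it was 0.21 with 78 of 85. The sign of the median thus depended on which libraries were used.

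The members moved together from library to library, and this movement exceeded the difference between genotypes. Each value was set against the mean of the gene over 6 libraries, on the scale of log2(CPM + 0.5), and the median deviation of the 77 core genes was 0.039, -0.17 and 0.072 in control replicates 1 to 3. In cKO replicates 1 to 3 it was -0.24, 0.032 and 0.28. The lowest and the highest library thus both belonged to the cKO group, with the controls between them. cKO replicate 3 was the highest library for 72 of the 85 tested members and for 18.4% of all tested genes, and cKO replicate 1 the lowest for 66 members and for 20% of all. Among the 77 core genes, 55 had both. Once the library medians were subtracted, the SD of the deviations went from 0.189 to 0.080, so that most of the spread was shared by the members.

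**Figure D3:**
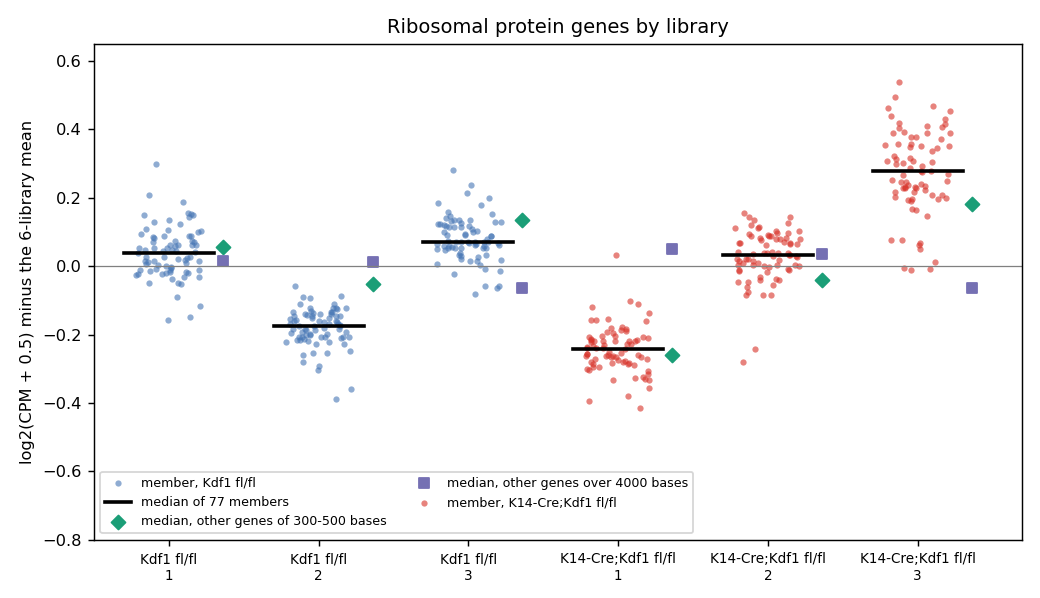
Deviation of each of the 77 core ribosomal protein genes from its own mean over 6 libraries, in log2(CPM + 0.5), by library, with points jittered sideways and black bars at the medians. Green diamonds and violet squares are medians of tested genes outside the members with an implied length of 300 to 500 bases and over 4000 bases. The members lie lowest in K14-Cre;Kdf1 fl/fl replicate 1 (median -0.24) and highest in replicate 3 (median 0.28).

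The summed level showed the same. Members took 5.93, 5.27 and 5.88% of all counts in the controls and 5.03, 6.11 and 7.10% in the cKO libraries, or 5.7 ± 0.367% and 6.08 ± 1.03% (SD, n = 3). The difference of 0.385 percentage points was below the pooled SD of 0.776, and it was -0.126 without cKO replicate 3. In TPM the members held 23.8, 21.8 and 22.9% of the transcripts in the controls and 21.5, 24.5 and 26.9% in the cKO libraries, again with the cKO libraries on both sides of the controls.

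The balance of the subunits varied far less than the total. Small subunit genes supplied 43.5, 42.8 and 42.7% of the core TPM in the controls and 42.8, 42.7 and 44.0% in the cKO libraries. The coefficient of variation over the 6 libraries was 1.29% for this share and 8.54% for the total. Large subunit genes had a median log2 fold change of 0.053 (35 of 46 above 0) and small subunit genes of 0.055 (27 of 31 above 0), and the difference between the subunits was not tested.

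Other measures moved with the same libraries. The core genes are short, with a median implied length of 461 bases against 2723 over all tested genes, and short genes outside the members followed the same order: the 131 genes of up to 300 bases had a median deviation of -0.34 in cKO replicate 1 and 0.24 in cKO replicate 3. The 3934 genes over 4000 bases had 0.051 and -0.063 there. In control replicate 2, by contrast, genes of 300 to 500 bases stood at -0.052 where members up to 500 bases stood at -0.20. Members above 1000 bases kept the same lowest and highest library, at -0.20 in cKO replicate 1 and 0.20 in cKO replicate 3, with -0.13 in control replicate 2. cKO replicate 1 also held the largest share of endothelial (0.11%), immune (0.0205%) and neutrophil (0.00782%) marker counts. The part of length and of other cell types in the members' movement was not tested.

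The members were also set against each other. With libraries scaled to the summed member counts, so that a fold change is against the ribosomal protein genes as a whole, the core genes ranged from -0.15 to 0.19 on the log2 scale, 44 were above 0, and the smallest adjusted p of any member was 0.316 by edgeR, that of *Rpl7l1*. This scaling places the members as a whole near 0 by construction. It called 0.00708% of all tested genes, so the lack of a called member does not show how close the members are.

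By position in the ribosome, 0 genes of any group were called by edgeR, where 0.545% of all tested genes were. The stalk, which recruits the GTPase factors of elongation, consists of *Rplp0*, *Rplp1* and *Rplp2* on a base formed with *Rpl12*. *Rplp0*, which anchors the stalk and is widely used as a reference gene in quantitative PCR, stood at 2701, 2295 and 2981 CPM in the controls and 2247, 2578 and 2697 CPM in the cKO libraries. Its log2 fold change was -0.085 (SE 0.17, adjusted p = 0.785 by edgeR). The groups overlapped, and the fold change of *Rplp0* ran from -0.18 to 0.010 when single libraries were left out. *Rplp1* was at 0.0042 and *Rpl12* at 0.0016, and both changed sign under other settings. *Rplp2*, with 401, 338 and 404 CPM against 327, 308 and 428 CPM, was at -0.10 (SE 0.16). The 4 genes had a median of -0.042, below that of the members, with 2 of 4 above 0.

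*Rpl5* and *Rpl11* carry the 5S RNA into the large subunit and, when ribosome assembly fails, bind Mdm2 and release p53. *Rpl5* stood at 1128, 1032 and 1215 CPM in the controls and 973, 1204 and 1273 CPM in the cKO libraries, and *Rpl11* at 673, 555 and 686 CPM against 562, 689 and 766 CPM. The log2 fold changes were 0.031 (SE 0.16) and 0.076 (SE 0.16), with adjusted p of 0.924 and 0.807 by edgeR. cKO replicate 3 was the highest library for both genes, cKO replicate 1 the lowest for *Rpl5* and control replicate 2 the lowest for *Rpl11*, and the groups overlapped.

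Around the tunnel through which the new protein leaves (*Rpl4*, *Rpl17*, *Rpl19*, *Rpl23a*, *Rpl26*, *Rpl35* and *Rpl39*) the log2 fold changes ran from -0.027 to 0.16, with 5 of 7 above 0. Along the path of the mRNA on the small subunit (*Rps2*, *Rps3*, *Rps9*, *Rps10*, *Rps15*, *Rps20* and *Rps23*) they ran from -0.093 to 0.059, with 6 of 7 above 0. *Rps3*, which also has a nuclease role in DNA repair, lay below 0, at 831, 689 and 816 CPM in the controls against 675, 757 and 758 CPM. The 19 members whose human counterparts are mutated in Diamond-Blackfan anaemia, an inherited failure of red cell production, had a median of 0.076 and a range of -0.040 to 0.23, with 16 above 0. In all of these groups 0 genes were called and 0 were without overlap, against 0.545% and 30.7% of all tested genes.

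Among the core genes the lowest p on the higher side belonged to *Rps15a*, a small subunit protein. It stood at 425, 386 and 415 CPM in the controls and 387, 486 and 564 CPM in the cKO libraries, so that cKO replicate 1 lay inside the range of the controls and the others above it. The log2 fold change was 0.23 (SE 0.16, adjusted p = 0.416 by edgeR). *Rpl24*, a protein of the bridge between the subunits, came next with 541, 458 and 514 CPM against 493, 579 and 645 CPM and a log2 fold change of 0.18. For *Rpl22* (0.16), *Rpl34* (0.15) and *Rps13* (0.17), too, cKO replicates 2 and 3 lay above all controls and cKO replicate 1 within or below them.

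On the lower side *Rpsa*, a small subunit protein that is also known as a laminin receptor, had 2529, 2186 and 2589 CPM in the controls and 2014, 2352 and 2303 CPM in the cKO libraries. Its log2 fold change was -0.13 (SE 0.15, adjusted p = 0.628 by edgeR), and it stayed below 0 with each library left out in turn (-0.20 to -0.047). *Rpl23*, a large subunit protein that can bind Mdm2, had 797, 558 and 675 CPM against 556, 684 and 646 CPM, with -0.11 on the log2 scale. Control replicate 2 lay within the range of the cKO group for *Rpsa*, and control replicates 2 and 3 did for *Rpl23*. *Rps27a*, which is translated as a fusion with ubiquitin, lay near 0 at 0.055 (SE 0.18).

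*Rpl7l1*, among the named copies, was the member with the lowest p. It encodes a nucleolar relative of *Rpl7* with a part in the assembly of the large subunit. Its mean level of 59.1 TPM, at an implied length of 2338 bases, lay below that of every core gene. In CPM, which does not use length, it lay above *Rps6* (43.4 to 60.5 CPM) in every library. *Rpl7l1* stood at 89.4, 85.2 and 93.9 CPM in the controls and at 71.1, 67.0 and 68.3 CPM in the cKO libraries. All cKO libraries lay below all control libraries, including cKO replicate 3, in which the core genes were highest. The log2 fold change was -0.38 (SE 0.10, 95% interval -0.61 to -0.14), with an adjusted p of 0.0896 by edgeR and 0.0257 by DESeq2. It remained between -0.41 and -0.33 without each library in turn, with adjusted p of 0.0917 to 0.309 by edgeR.

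**Figure D4:**
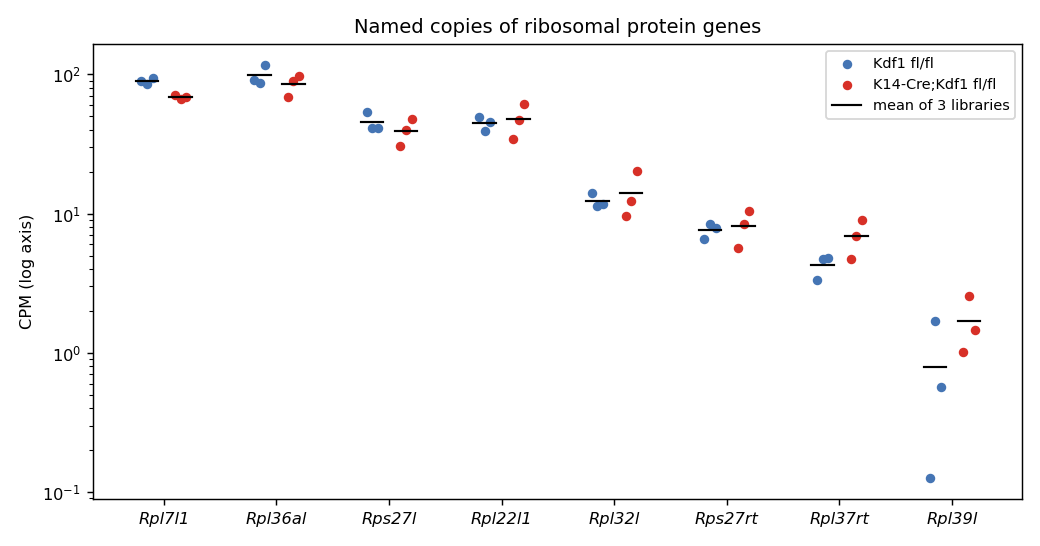
CPM (log axis) of the 8 tested named copies in each library, Kdf1 fl/fl in blue and K14-Cre;Kdf1 fl/fl in red, with a bar at the mean of 3 libraries. For *Rpl7l1* the groups do not overlap (85.2 to 93.9 against 67.0 to 71.1 CPM), and for the other 7 genes they do.

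The other copies overlapped between the groups. *Rpl36al*, an expressed retrogene of *Rpl36a*, had 90.7, 86.6 and 117 CPM in the controls and 68.5, 89.9 and 97.8 CPM in the cKO libraries (log2 fold change -0.20, SE 0.18). *Rps27l*, a p53-inducible relative of *Rps27*, had 53.6, 41.5 and 41.2 CPM against 30.8, 39.8 and 47.8 CPM (-0.20, SE 0.19). For both, cKO replicate 1 was the lowest library. *Rpl22l1*, which can take the place of *Rpl22* in the ribosome, had 49.2, 39.4 and 45.5 CPM against 34.4, 47.3 and 61.5 CPM (0.094, SE 0.22). *Rpl37rt* (0.68, SE 0.31), *Rpl32l* (0.17, SE 0.29) and *Rps27rt* (0.091, SE 0.27) lay at 3.33 to 20.2 CPM. *Rpl39l*, known from testis, was at 0.126 to 1.70 CPM in the controls and 1.01 to 2.58 CPM in the cKO libraries, and its interval ran from -0.78 to 2.90 on the log2 scale. Copies of this kind share sequence with their parents, and 20 of the 88 members had a count that was not whole in some library, 22.7% against 15.7% of all genes, so their values are uncertain.

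Each copy was also set against its parent within a library, which removes what moves both alike. *Rpl7l1* made up 2.33, 2.38 and 2.37% of the TPM of itself and *Rpl7* in the controls and 2.14, 1.63 and 1.52% in the cKO libraries. These 2 genes differed in implied length, at 2338 and 666 bases. In cKO replicate 3 genes of 500 to 1000 bases had a median deviation of 0.12 and those of 2000 to 4000 bases of -0.037. The part of length in this share was not tested. *Rpl36al* made up 26.8, 28.1 and 32.0% of itself and *Rpl36a* against 25.6, 25.2 and 22.9%. For *Rps27l* and *Rps27* the share was 4.52, 4.74 and 3.93% against 3.64, 3.85 and 3.21%. The groups did not overlap for these 3 of the 11 pairs, each being lower in cKO, while 30.7% of all tested genes did not overlap in CPM. Among the 11 pairs, those of *Rpl3l*, *Rpl10l* and *Rps23rg1* rest on a few reads, and *Rps27* is the parent of both *Rps27l* and *Rps27rt*. The exact two-sided permutation test gave p = 0.1, the smallest that 3 against 3 libraries allow, and 0.367 after adjustment over the 11 pairs. *Rpl22l1*, the copy with the largest share, made up 58.4, 55.5 and 57.5% of itself and *Rpl22* in the controls and 52.8, 55.3 and 58.6% in the cKO libraries, and its groups overlapped.

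Genes that work with the ribosome were read from 7 lists. By edgeR 0 genes of these lists reached an adjusted p of at most 0.05, where 0.545% of all tested genes did. The counts below use an unadjusted p of at most 0.05, which 13.0% of all genes met on the higher and 11.6% on the lower side. Of 25 translation factors and other genes with TOP mRNAs 1 was higher and 0 were lower. Their median log2 fold change was 0.035, and it was -0.022 without control replicate 2 and 0.14 without cKO replicate 1. *Eef1a1*, the elongation factor that brings aminoacyl-tRNA, stood at 10499 ± 603 CPM in the controls and 10753 ± 858 CPM in the cKO libraries (SD, n = 3). *Rack1* and *Fau*, which encode ribosomal components outside the *Rpl* and *Rps* names, were at 0.040 and -0.0055 on the log2 scale. *Eif4a2*, an RNA helicase of translation initiation, stood at 246, 237 and 261 CPM in the controls and 262, 299 and 308 CPM in the cKO libraries (0.22, SE 0.12, adjusted p = 0.278 by edgeR), without overlap. The higher gene was *Vim*, at 0.66 (SE 0.26). It encodes an intermediate filament of mesenchyme that also stands in the list of dental papilla markers, and the part of papilla cells in its value was not tested.

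**Figure D5:**
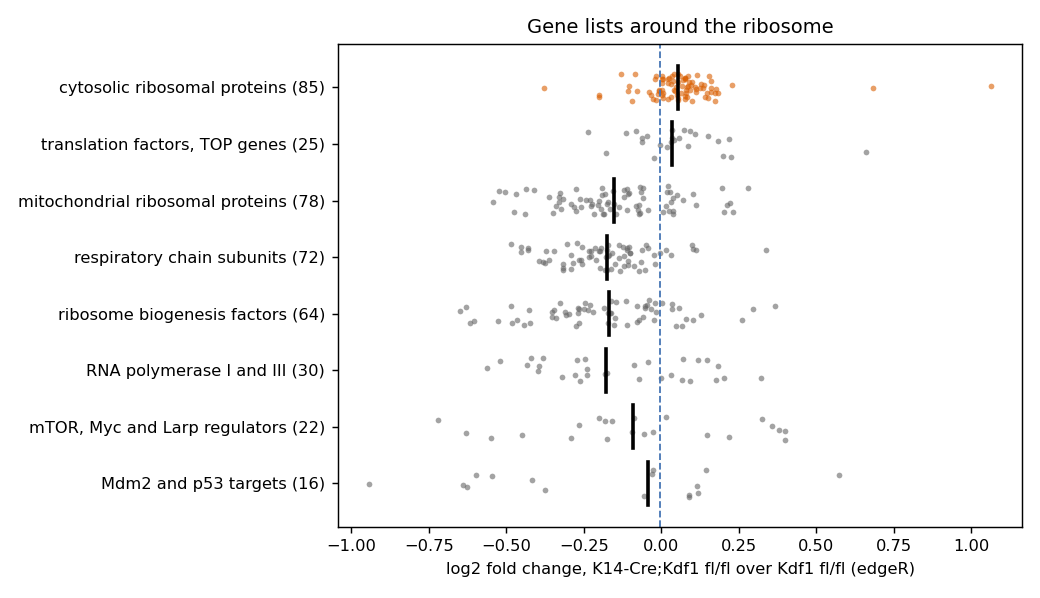
Log2 fold change (K14-Cre;Kdf1 fl/fl over Kdf1 fl/fl, edgeR) of every tested gene in 8 lists, with the number tested in brackets, black bars at the list medians and a dashed line at the median of all tested genes (-0.0043). The members of the cytosolic ribosome have a median of 0.055, and the lists for the mitochondrial ribosome, the respiratory chain, ribosome biogenesis and RNA polymerases I and III have medians of -0.15 to -0.18.

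Factors that assemble the ribosome had mostly negative estimates. Of 64 ribosome biogenesis factors 14 were lower and 1 was higher at the unadjusted p, and 24 (37.5%) lay below the controls without overlap, against 16.2% of all genes. Their median log2 fold change was -0.17. *Bysl*, a factor of small subunit assembly, stood at 34.6, 35.4 and 35.0 CPM in the controls and 23.8, 23.7 and 19.5 CPM in the cKO libraries. Its log2 fold change was -0.65 (SE 0.13), with an adjusted p of 0.0674 by edgeR, 0.0388 with the replicate block and 0.00277 by DESeq2. *Bop1*, which acts with *Pes1* and *Wdr12* on the large subunit, stood at 56.6, 49.0 and 68.6 CPM against 42.8, 35.4 and 35.4 CPM, and the log2 fold change was -0.62 (SE 0.16, adjusted p = 0.0879 by edgeR). Both were without overlap.

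RNA polymerases I and III, which make the ribosomal RNAs, gave 8 lower and 1 higher of 30 genes, with a median of -0.18 (-0.091 without cKO replicate 2). *Polr3b*, the second largest subunit of RNA polymerase III, stood at 36.9, 35.9 and 34.0 CPM in the controls and 26.3, 26.1 and 26.8 CPM in the cKO libraries (-0.43, SE 0.11, adjusted p = 0.0912 by edgeR). *Cd3eap*, a subunit of RNA polymerase I, was at -0.52 (SE 0.18). *Maf1*, the repressor of RNA polymerase III, was on the other side, at 89.8, 83.5 and 84.0 CPM against 115, 116 and 108 CPM (0.40, SE 0.098, adjusted p = 0.0838 by edgeR and 0.00479 by DESeq2). None of the 3 genes overlapped between the groups.

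Among 22 regulators of ribosomal protein mRNAs or ribosome number, 4 were higher and 3 lower. *Mtor*, the kinase at the head of the pathway, stood at 96.9, 91.5 and 99.7 CPM in the controls and 69.7, 54.6 and 62.0 CPM in the cKO libraries. Its log2 fold change was -0.63 (SE 0.12), with an adjusted p of 0.0637 by edgeR, 0.0256 with the replicate block and 0.00187 by DESeq2. *Eif4ebp1*, an inhibitor of translation that mTOR inactivates, was at 33.4, 29.4 and 26 CPM against 41.4, 41.4 and 34.3 CPM (0.40, SE 0.15, adjusted p = 0.161 by edgeR). *Rps6kb1*, the S6 kinase, was at 0.22 (SE 0.10) and *Larp1*, which binds the TOP start, at -0.17 (SE 0.10). *Myc*, which drives ribosome production in many tissues, was at 78.5, 55.4 and 68.6 CPM against 70.4, 39.6 and 66.2 CPM, with overlapping groups. These are mRNA levels, and activity of the kinases was not measured in the libraries. By western blot of IEE at the same stage, the paper reports raised phosphorylation of the AKT and mTOR proteins and raised PIK3CA protein in cKO. Phosphorylation of GSK3β and FOXO3a, which AKT also targets, did not differ significantly there.

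The mitochondrial counterparts had mostly negative estimates. Of 78 mitochondrial ribosomal protein genes 12 (15.4%) were lower and 0 higher, where 11.6% of all genes were lower. Of the 78, 58 lay below 0, where 18 of the 85 cytosolic members did. The median was -0.15, and -0.057 without cKO replicate 1, -0.10 without control replicate 3 and -0.19 without cKO replicate 3. *Mrpl12*, a stalk protein of the mitochondrial ribosome, stood at 65.5, 56.6 and 66.1 CPM in the controls and 44.2, 50.8 and 43.9 CPM in the cKO libraries (-0.44, SE 0.12, adjusted p = 0.1 by edgeR). *Mrps33* was at -0.52 (SE 0.17). Of 72 tested nuclear genes for respiratory chain subunits 9 (12.5%) were lower and 0 higher, a share close to that of all genes. Of the 72, 66 lay below 0 and the median was -0.17, with -0.053 without cKO replicate 1, -0.11 without control replicate 3 and -0.26 without cKO replicate 3. Their median implied length, 400 bases, was close to that of the members (459 bases), and genes of 300 to 500 bases outside the members had a median of -0.080. *Uqcr11*, a small subunit of complex III, was at -0.48 (SE 0.14) and *Ndufa10*, of complex I, at -0.32 (SE 0.098). The difference between these lists and the members was not tested.

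*Mdm2* and p53 targets, which free ribosomal proteins can set in motion, gave 4 lower and 0 higher of 16 genes. *Mdm2* stood at 98.1, 83.2 and 95.5 CPM in the controls and 90.6, 105 and 105 CPM in the cKO libraries (0.12, SE 0.12). *Plk2* was at -0.64 (SE 0.20, adjusted p = 0.124 by edgeR and 0.0244 with the replicate block) and *Ccng1* at -0.42 (SE 0.14). *Cdkn1a*, the cell cycle inhibitor, chosen here after its values were seen, stood at 173, 343 and 536 CPM in the controls and 98.6, 144 and 304 CPM in the cKO libraries (-0.94, SE 0.51). Its adjusted p was 0.300 by edgeR and 0.0146 with the replicate block, and the groups overlapped, although within each replicate number the cKO library was the lower.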

How the data were processed

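RNA-seq of the IEE comprised 3 control (*Kdf1* fl/fl) and 3 cKO (*K14-Cre;Kdf1* fl/fl) libraries that the labels name as biological replicates. Whether a library came from 1 animal or several is not given in the sources used here. The submitters' processing notes name BWA 0.7.12, Picard 2.6.0 and StringTie, and the genome build and the annotation are not given in the sources used here. The estimated counts deposited by the authors are reads assigned to genes, of which 10.9 to 11.5% per library were not whole, and they were rounded. The deposited TPM and FPKM values are the authors' length-corrected levels. TPM was used for levels between genes, and FPKM only with the counts to obtain the implied transcript length. No column was left unmapped. The table as used here lists no gene of the mitochondrial genome.

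In R 4.3.3 with edgeR 4.0.16, the whole table was filtered with filterByExpr (14131 of 18152 genes), scaled by TMM and compared by the robust quasi-likelihood test (two-sided, p-values adjusted by Benjamini-Hochberg). A gene was called at an adjusted p of at most 0.05. The study's criterion, which also asks for a log2 fold change of 1 or more in size, was an alternative, as were DESeq2 1.42.0, limma 3.58.1 (voom, and on log2(TPM + 1) and log2(TPM + 0.1)), other scalings and filters and the omission of each library. Scaling to the summed member counts and the addition of *Rps6-ps4* were chosen after seeing the data. The procedure was tested on simulated counts, with changes far larger than those of the core genes and no movement shared within a library. That test does not show how well changes as small as theirs would be found. The floor for a count of 0 covers counting error only, whereas the 95% intervals come from the edgeR fit and cover the spread between libraries.

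Within a group the libraries differed by at least 36 and at most 76.7 times what sampling gives, and none was a duplicate. After the group means were subtracted, libraries of equal replicate number correlated at 0.135, 0.324 and 0.499 across genes (control replicate 2 with cKO replicate 1, of unequal number, at 0.144). As all 3 pairs were above 0.1, pairing by number was treated as possible. It is not established, since the pair of unequal number was above 0.1 too. A fit with the replicate number as a block was made beside the main fit. The main fit and the permutation test of the copies leave the libraries unpaired.

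The genes and lists were chosen with earlier results of these data known. Members named in the text were the 8 with the lowest p on each side, all named copies, the stalk and 5S RNA proteins, the 3 highest and 3 lowest by TPM, *Rps6* and *Rps27a*, and from each other list the 2 genes with the lowest p and 6 regulators. A gene that the rule names is not reported here and is left out of the plots that label genes. Other genes named were chosen after their values were seen.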

Additional observations from a re-analysis of the deposited data

How the results depend on the processing

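Over 19 settings, 0 members were called except under DESeq2 (1, *Rpl7l1*), and under edgeR with an unadjusted p of at most 0.05 (1) or an adjusted p of at most 0.1 (1). The log2 fold changes of the core genes are small against their standard errors, and most signs below are those of values near 0. Of 929 values for 49 named genes, 873 kept their direction and their side of the threshold, 12 passed it and 44 changed sign, in 17 genes. The 7 other lists together held 0 calls in the main fit, 4 with the replicate block (*Bysl*, *Mtor*, *Plk2* and *Cdkn1a*), 10 with DESeq2 and 3 without cKO replicate 3 (*Mrps33*, *Mrpl51* and *Perp*), so that this count ran from 0 to 3 over the libraries left out. The block changed no other call of a member or of a gene in these 7 lists, whereas calls among the cell type markers did change. Called genes over the whole table numbered 77 in the main fit, 1395 with the block, 1786 with DESeq2, 132 without a filter, 6 with voom and from 1 to 607 without single libraries.

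Signs changed as follows, on the log2 scale. *Rps26* (-0.0068) was at 0.0096 with DESeq2 and with its size factors in edgeR, 0.033 with upper quartile scaling, 0.055 with library size alone, 0.018 with TMM factors computed without the members, 0.0080 with at least 10 counts in every library and 0.022 on log2(TPM + 1) and log2(TPM + 0.1). *Rpl12* was at -0.011 with the replicate block, -0.010 without a filter, -0.012 with voom and -0.037 against the summed members, and *Rplp1* at -0.00709 without a filter and -0.025 against the summed members. *Rpl5* and *Rps6* were at -9.5e-05 and -0.00066 against the summed members. Leaving out single libraries gave -0.20 to 0.18 for *Rps26*, -0.11 to 0.16 for *Rpl12*, -0.093 to 0.12 for *Rplp1*, -0.027 to 0.16 for *Rpl5*, -0.035 to 0.19 for *Rps6*, -0.015 to 0.21 for *Rpl11*, -0.18 to 0.010 for *Rplp0*, -0.24 to 0.017 for *Rplp2*, -0.23 to 0.040 for *Rpl23*, -0.19 to 0.073 for *Rpl41*, -0.13 to 0.20 for *Rps20*, -0.13 to 0.32 for *Rps27*, -0.082 to 0.20 for *Rps27a*, -0.11 to 0.30 for *Rpl22l1*, -0.16 to 0.41 for *Rpl32l*, -0.10 to 0.31 for *Rps27rt* and -0.33 to 0.050 for *Myc*. The causes were not tested.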
